A study of Homo sapiens with 95 samples.

Results

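Cells repair bulky, oxidized, alkylated and mispaired bases by separate routes, and the expression of 33 genes of these routes was described in AALE cells, an immortalized human bronchial epithelial line, exposed to tobacco chemicals. The 33 symbols were given as a list, all 33 were among the 23895 genes listed for every well, and they were kept in a comparison where their mean count was over 1. They comprised 12 genes of nucleotide excision repair (NER), 12 genes of base excision repair (BER), MGMT for direct reversal, 5 genes of translesion bypass and 3 of mismatch repair. The list was drawn up by repair route, with earlier results of these data known.

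NER cuts out a short stretch of DNA around a bulky adduct, such as those that the diol epoxide of benzo[a]pyrene leaves on guanine, and is known for the sun sensitivity of patients who lack it. BER starts with a glycosylase that releases a single damaged base, after which the strand is cut, filled and sealed. MGMT takes an alkyl group directly from guanine, a lesion that activated tobacco nitrosamines can leave, while bypass polymerases copy past a lesion that remains and mismatch repair corrects mispairs after replication.

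The data were 3′ digital gene expression (3′DGE) libraries, which count 3′ ends of transcripts by unique molecular identifiers (UMIs), from 95 wells. Vehicle (DMSO), cigarette smoke condensate (CSC, 24 µg/ml), benzo[a]pyrene (BaP, 173 µM) and the nitrosamine NNK (490 µM) were each given to 8 populations, and the length of exposure is not given in the sources used here. Cells overexpressing NRF2 (NFE2L2), FGFR1, NRG1 or PIK3CA had HCRED cells, which carry an empty vector with the HcRed reporter, as control, and CRISPR knockouts of FAT1 or CDKN2A had GFP cells, transfected with the pSpCas9-EGFP plasmid without a guide. All populations shared the AALE background, and whether a population was a single clone is not given in the sources used here.

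Wells whose 2-digit replicate numbers shared a first digit were summed, which left 88 samples: 24 under DMSO, 20 under CSC, 21 under BaP and 23 under NNK. Groups held 2 or 3 samples, except CDKN2A cells under CSC with 1, made of wells summed together. Samples held 692446 to 3187387 UMI counts, and levels are given below as CPM, counts scaled to the same library total, which for 3′ tags are not divided by transcript length. The study calls the wells biological replicates, without saying how cultures were kept apart, so p-values measure the spread between these samples. Every chemical occupied its own 2 plate rows, so chemical and plate row cannot be told apart. In bulk samples fewer cells of a kind and less RNA per cell cannot be told apart either.

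Some facts of the whole series bear on the values below. Under DMSO the targeted gene lay above all control samples in each overexpression population. FAT1 ranged from 0 to 3.40 CPM in FAT1 cells against 5.86 to 11.6 in GFP cells, and CDKN2A from 19.0 to 23.8 CPM in CDKN2A cells against 34.9 to 38.6, although a 3′ tag outside an edited site checks no knockout. The basal airway markers KRT5, KRT14, KRT17, TP63 and ITGA6 were detected in all 88 samples, and so were the general epithelial markers EPCAM, KRT8, KRT18 and CDH1. Of the fibroblast, leukocyte and endothelial markers, CD3E, VWF and CDH5 were at 0 in all samples, COL1A2 in 86, PTPRC in 84, KDR in 83 and LUM in 73. The others were at low levels, with LYZ at 0 in only 2 samples (median 3.89 CPM), DCN in 8 (highest 15.8 CPM), PECAM1 in 17, COL1A1 in 32 and CD14 in 34. Their part in the results was not tested. The library of NRG1 cells under NNK replicate 2 stood apart, with a median correlation of 0.932 with the other 2 of its group, and results that rest on it are given with and without it.

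Promoters of 4 of the 6 genes that passed against DMSO are shown first, since CSC and BaP are known to act through the aryl hydrocarbon receptor (AHR), which binds DNA around the letters GCGTG. Each run is the first listed RefSeq start of the gene on GRCh38.p14, 250 bases before to 50 after it, written 5′ to 3′ on the strand of the gene. Capitals mark GCGTG or its reverse complement CACGC. DDB2 lies at chr11:47214204-47214503 on the plus strand, CETN2 at chrX:152830708-152831007 on the minus strand, REV3L at chr6:111483662-111483961 on the minus strand and MSH6 at chr2:47782895-47783194 on the plus strand.
DDB2: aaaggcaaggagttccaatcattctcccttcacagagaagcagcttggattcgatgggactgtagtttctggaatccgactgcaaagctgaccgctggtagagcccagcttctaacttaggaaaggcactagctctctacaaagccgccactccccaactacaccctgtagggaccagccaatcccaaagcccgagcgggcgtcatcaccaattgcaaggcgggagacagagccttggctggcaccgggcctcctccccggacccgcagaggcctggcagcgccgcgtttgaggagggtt
CETN2: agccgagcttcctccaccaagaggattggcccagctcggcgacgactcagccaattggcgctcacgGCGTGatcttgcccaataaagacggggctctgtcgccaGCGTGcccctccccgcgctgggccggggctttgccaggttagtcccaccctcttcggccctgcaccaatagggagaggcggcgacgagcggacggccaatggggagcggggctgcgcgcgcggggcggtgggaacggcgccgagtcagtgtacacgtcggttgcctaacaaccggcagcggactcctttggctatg
REV3L: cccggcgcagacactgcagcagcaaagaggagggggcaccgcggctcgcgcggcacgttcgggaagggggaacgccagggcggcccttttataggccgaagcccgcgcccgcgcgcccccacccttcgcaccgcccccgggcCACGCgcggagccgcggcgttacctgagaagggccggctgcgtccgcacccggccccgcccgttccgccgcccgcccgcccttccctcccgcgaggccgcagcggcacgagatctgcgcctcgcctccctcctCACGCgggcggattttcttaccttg
MSH6: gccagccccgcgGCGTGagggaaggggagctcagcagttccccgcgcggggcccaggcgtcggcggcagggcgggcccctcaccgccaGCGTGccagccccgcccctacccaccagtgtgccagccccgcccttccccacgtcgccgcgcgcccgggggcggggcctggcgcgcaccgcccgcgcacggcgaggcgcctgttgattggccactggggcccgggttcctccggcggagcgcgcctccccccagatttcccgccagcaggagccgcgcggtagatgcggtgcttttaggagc

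The core was absent from the DDB2 window and present 2 times in each of the CETN2, REV3L and MSH6 windows shown. The second listed DDB2 start held 0, the second REV3L start 1 and the other 3 MSH6 starts 0, while the windows of APEX1 and PARP1, not shown, held 2 and 1. The 32 repair genes with an entry, all but POLB, had 46 listed promoters, of which 27 held the core on either strand, beside 36.5% of all 35116 promoters of this length. A longer form, TNGCGTG, was held by 4 of the 46 and by 5.51% of all promoters. The GC box, GGGCGG, was held by 37 of the 46 and by 45% of all promoters. The antioxidant response letters, TGACNNNGC, were held by 11 of the 46 and by 13.3% of all promoters. The part of base composition in these shares was not tested. A match is a run of letters in these windows and not a measured binding site.

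The first question was whether each chemical changed the repair genes across the 8 populations. Under CSC 3 of the 32 genes tested passed the threshold (limma, adjusted p under 0.05) and all 3 were lower, REV3L, PARP1 and MSH6. Over all 11646 genes tested 8.89% passed, 4.75% higher and 4.14% lower, so the share of the repair genes, 9.38%, was near the background. Under BaP 3 of 33 passed, DDB2 and APEX1 higher and MSH6 lower, beside 16.3% of 11493 genes, 8.39% higher and 7.90% lower. Under NNK 3 of 32 passed, CETN2 higher and REV3L and MSH6 lower, beside 11.5% of 11492 genes, 4.81% higher and 6.72% lower. The median log2 fold change of the repair genes was -0.015 under CSC, -0.0014 under BaP and 0.044 under NNK, against -0.0026, -0.0074 and -0.0066 over all genes tested. ERCC5, the endonuclease that cuts on the 3′ side of an adduct, had a mean count of 0.932 over the 88 samples and passed the count minimum only in the BaP comparison. The 3 comparisons share their DMSO samples, so their values are given side by side and agreement between them is no separate evidence.

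**Figure D1:**
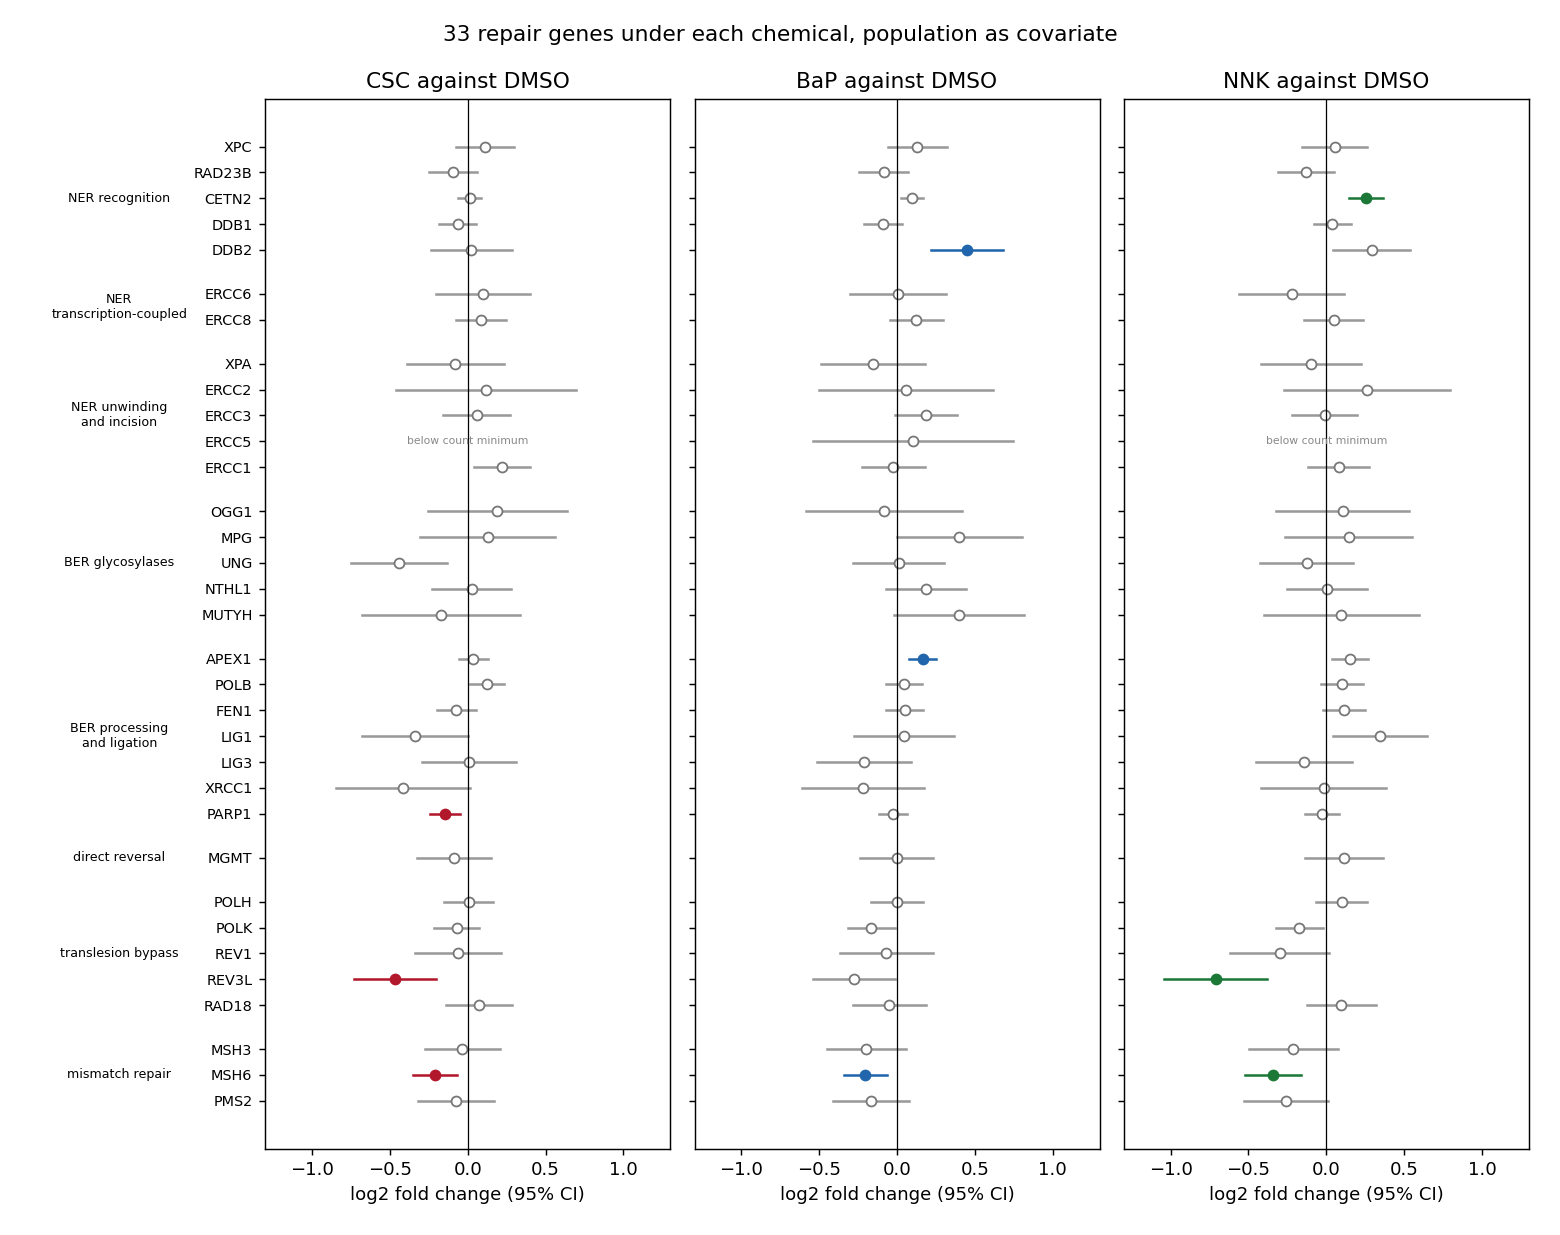
Log2 fold change of the 33 repair genes against DMSO under CSC, BaP and NNK (x axes, log2 units), ordered by repair route. Points are limma estimates with population as covariate, bars are 95% confidence intervals and filled points passed an adjusted p of 0.05. Most intervals cross 0, and the filled points are REV3L, PARP1 and MSH6 under CSC, DDB2, APEX1 and MSH6 under BaP, and CETN2, REV3L and MSH6 under NNK.

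The recognition step of NER held the gene that BaP moved most surely. DDB2, which with DDB1 binds damaged DNA in chromatin and hands it to XPC and is a known target of p53, lies on hg19 chromosome 11 from 47236016 to 47260768. Its level under DMSO ran from 3.35 to 17.6 CPM with a median of 10.5 (n = 24), and under BaP from 8.67 to 27.6 CPM with a median of 13.1 (n = 21). The ranges overlapped, but the lowest BaP sample lay well above the lowest DMSO samples, and the difference within a population was positive in 8 of 8. It ranged from 0.08 in FGFR1 cells to 0.98 in CDKN2A cells on the log2 scale. DDB2 rose under BaP by a log2 fold change of 0.45 (SE 0.12, limma adjusted p = 0.00267).

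Under CSC DDB2 ran from 5.82 to 18.3 CPM with a median of 9.94 (n = 20), a log2 fold change of 0.02 with a 95% interval of -0.24 to 0.28. The difference between BaP and CSC was tested directly and was 0.44 (SE 0.12, limma adjusted p = 0.00916), higher under BaP in 7 of 8 populations. Without replicate 1 the adjusted p of that difference no longer passed, at a log2 fold change of 0.33. The same held without replicate 3 at 0.45, without NRG1 cells at 0.36 and without GFP cells at 0.38. It held too with only the 1-digit wells of populations with 3 wells under both, so the call was lost in 5 of 19 alternatives. Under NNK DDB2 ran from 3.84 to 20.2 CPM with a median of 10.98 (n = 23), and its log2 fold change of 0.29 (SE 0.12) did not pass, at a limma adjusted p of 0.117. Without the NRG1 library that stood apart the value was 0.32 and passed, at a limma adjusted p of 0.0459. BaP and NNK differed by 0.16 for DDB2, with a 95% interval of -0.06 to 0.38.

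CETN2, centrin 2, a calcium-binding subunit of the XPC complex that also sits in the centrosome, lies on hg19 chromosome X from 151995540 to 151999300. It ran from 165 to 270 CPM with a median of 208 under DMSO (n = 24), and from 186 to 316 CPM with a median of 230 under NNK (n = 23). The ranges overlapped across populations. Within 5 of the 8 populations every NNK sample lay above every DMSO sample in CPM, and within 6 once libraries were scaled by TMM factors (trimmed mean of M-values). The largest difference was 0.49 in CDKN2A cells, and only NRG1 cells had a negative one, -0.04. CETN2 rose under NNK by 0.26 (SE 0.05, limma adjusted p = 0.000379), and by 0.32 without the NRG1 library that stood apart, where it was 186 CPM against 242 and 253 in the other NRG1 samples. Without replicate 3 the call was lost, at 0.22 (limma adjusted p = 0.0644).

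Under CSC CETN2 was 163 to 271 CPM with a median of 202, and its log2 fold change was 0.01 with a 95% interval of -0.06 to 0.09. It was lower under CSC than under NNK by a log2 fold change of -0.25 (SE 0.05, limma adjusted p = 0.000481), in 7 of 8 populations. The samples of both chemicals did not overlap in 4 populations in CPM and in 7 on the TMM-scaled values. That call was lost without replicate 1, at -0.24, and without replicate 3, at -0.22. Under BaP it was 182 to 270 CPM with a median of 209. The BaP value was 0.09 (SE 0.04), just outside the threshold with a limma adjusted p of 0.0596, although positive in 8 of 8 populations.

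XPC, the protein that senses the distorted helix and starts global genome repair, did not pass the test under any chemical. Its level ran from 7.25 to 24.1 CPM under DMSO, from 10.6 to 25.8 under CSC, from 6.92 to 21.5 under BaP and from 5.65 to 24.5 under NNK, with medians of 14.5, 16.5, 15.5 and 15.9 CPM. The ranges overlapped almost whole. The log2 fold change was 0.11 under CSC with a 95% interval of -0.07 to 0.30, 0.13 under BaP with an interval of -0.06 to 0.32, and 0.05 under NNK with an interval of -0.15 to 0.26. None of the other 2 recognition genes passed, RAD23B, the partner that stabilizes XPC, and DDB1, the adaptor that links DDB2 to its ubiquitin ligase. The genes of transcription-coupled recognition (ERCC6, ERCC8) and of unwinding and incision (XPA, ERCC1, ERCC2, ERCC3, ERCC5) did not pass either.

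**Figure D2:**
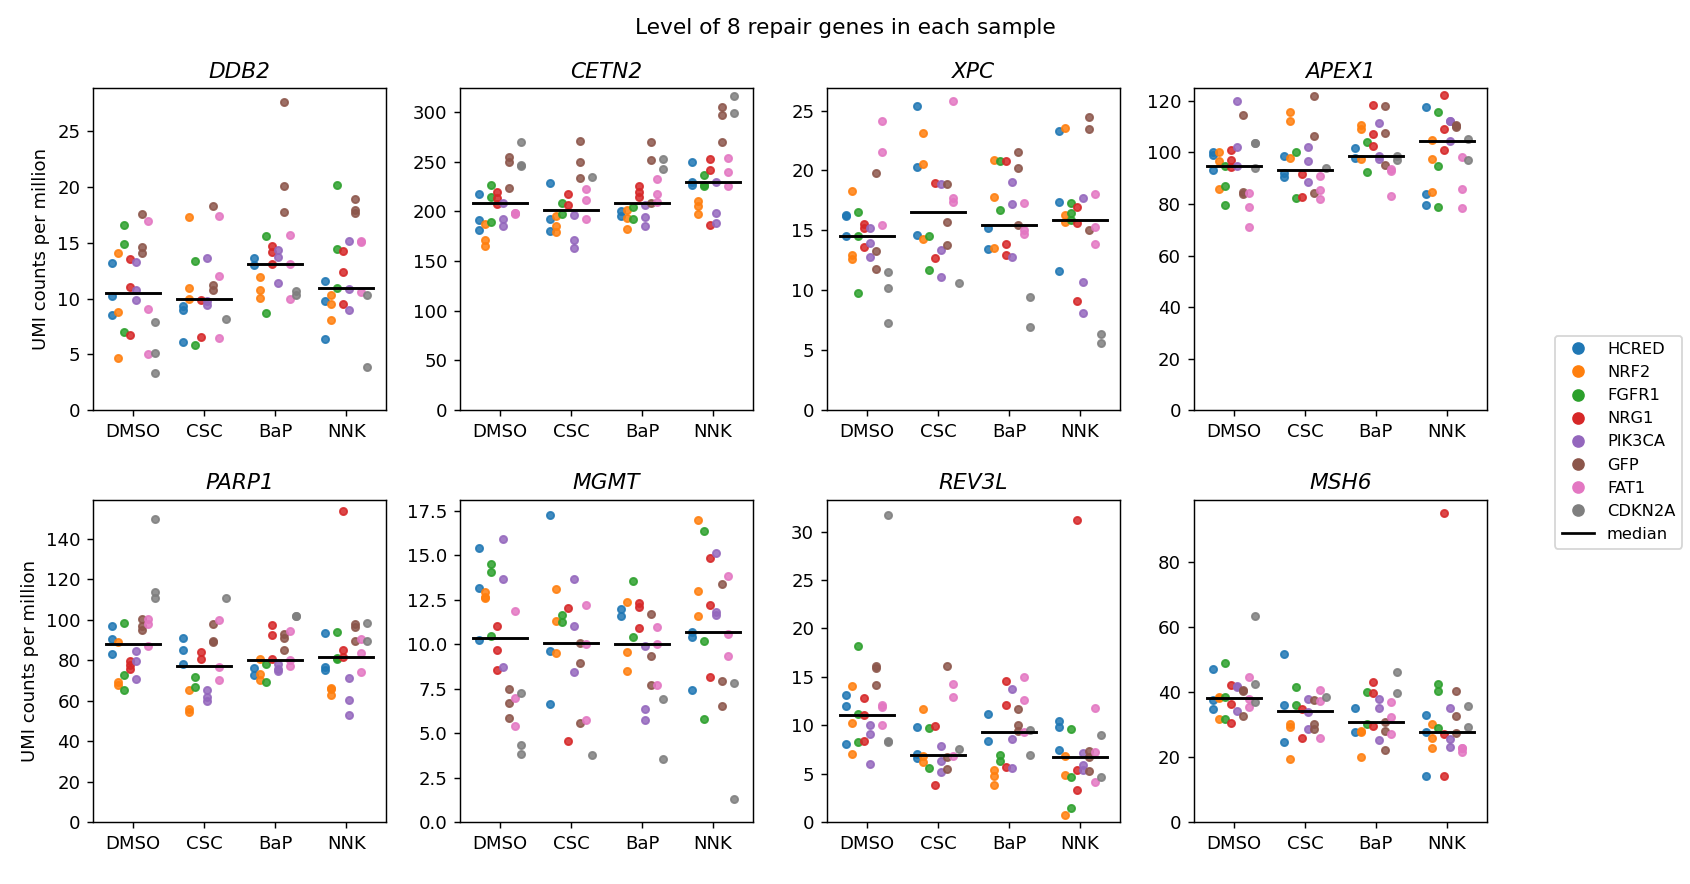
Level of 8 repair genes in each of the 88 samples (y axes, CPM, UMI counts scaled by library total) by chemical, with 1 point per sample coloured by population and a bar at the median of each chemical. DDB2 is shifted up under BaP and CETN2 under NNK, while the single red points at 154 CPM for PARP1, 31.2 for REV3L and 94.9 for MSH6 under NNK are the library of NRG1 cells that stood apart.

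In BER 2 genes past the glycosylase step passed, in opposite directions and under different chemicals. APEX1, the endonuclease that cuts the strand at a site without a base, ran from 71.0 to 120 CPM with a median of 94.8 under DMSO and from 83.2 to 118 CPM with a median of 98.7 under BaP. The shift was small beside the spread, with the lowest values missing under BaP. APEX1 rose by 0.16 (SE 0.04, limma adjusted p = 0.00409), with differences from -0.00094 in PIK3CA cells to 0.30 in FGFR1 cells, positive in 7 of 8 populations. The call was lost without replicate 2, at 0.12. Under NNK APEX1 ran from 78.5 to 122 CPM with a median of 104, and its change of 0.15 did not pass, at a limma adjusted p of 0.0742. Without the NRG1 library that stood apart it was 0.20 with a limma adjusted p of 0.000886. Against CSC, where APEX1 ran from 81.8 to 122 CPM, the difference under BaP was 0.14 (SE 0.04, limma adjusted p = 0.0276), and it was lost in 9 of 19 alternative analyses.

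PARP1, which binds strand breaks and marks them with ADP-ribose chains, fell under CSC. It ran from 65.1 to 150 CPM with a median of 88.2 under DMSO and from 54.2 to 111 CPM with a median of 77.3 under CSC. The ranges overlapped, and the difference was negative in 7 of 8 populations, from -0.39 in NRF2 cells to 0.10 in NRG1 cells. The log2 fold change was -0.15 (SE 0.05, limma adjusted p = 0.0387), and the call was lost in 8 of 20 alternatives. These included leaving out replicate 2 or 3, at -0.12 and -0.11, or the NRF2, PIK3CA, GFP or FAT1 cells. Under BaP and NNK PARP1 differed from DMSO by -0.03 and -0.02, with 95% intervals of -0.12 to 0.06 and -0.13 to 0.08.

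Of the 5 glycosylases, OGG1, MPG, UNG, NTHL1 and MUTYH, none passed against DMSO. UNG, which removes uracil, came nearest under CSC, where it ran from 2.10 to 9.04 CPM with a median of 5.13 against 2.94 to 12.4 with a median of 7.38 under DMSO. Its log2 fold change was -0.44 (SE 0.15) with a limma adjusted p of 0.0556, just outside the threshold. BaP exceeded CSC for UNG by 0.47 (SE 0.16, limma adjusted p = 0.0449) in 8 of 8 populations, a call kept in 5 of 19 alternatives. UNG is a count of few molecules here, 8.74 per sample on average.

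Of the 7 genes of BER processing and ligation, LIG1 and FEN1 differed between CSC and NNK, with overlapping ranges. LIG3, the other ligase, did not pass, at 0.16 with a 95% interval of -0.17 to 0.50. LIG1, the ligase that joins replicated DNA and seals long patches of BER, ran from 1.14 to 9.17 CPM with a median of 4.03 under CSC and from 2.56 to 12.3 CPM with a median of 6.59 under NNK. LIG1 was lower under CSC than under NNK by a log2 fold change of -0.71 (SE 0.18, limma adjusted p = 0.00371), negative in 7 of 8 populations. That call was lost without replicate 2, at -0.52, and without replicate 3, at -0.68. Against DMSO, whose samples ran from 1.90 to 13.7 CPM, neither passed, at -0.34 under CSC and 0.34 under NNK. FEN1, which trims the flap ahead of the ligase, ran from 27.2 to 57.8 CPM under CSC and from 29.4 to 89.5 under NNK. It was lower under CSC by -0.21 (SE 0.07, limma adjusted p = 0.0436), a call kept in 10 of 20 alternatives, and its highest value was the NRG1 library that stood apart. Without that library the differences between CSC and NNK were -0.30 for CETN2, -0.68 for LIG1 and -0.19 for FEN1, and all 3 still passed.

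MGMT, the methyltransferase that repairs alkylated guanine, did not pass under any chemical. It ran from 3.82 to 15.9 CPM with a median of 10.4 under DMSO, from 3.76 to 17.3 with a median of 10.1 under CSC, from 3.56 to 13.6 with a median of 10.0 under BaP and from 1.28 to 17.0 with a median of 10.7 under NNK. The ranges covered each other almost fully. Log2 fold changes were -0.09 under CSC (95% interval -0.32 to 0.15) and -0.0014 under BaP (-0.23 to 0.23). The NNK value was 0.11, with a 95% interval of -0.14 to 0.37. It was 0.20 without the NRG1 library that stood apart, with an interval of -0.04 to 0.44, and did not pass.

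Among the bypass genes REV3L, the catalytic subunit of polymerase zeta that extends DNA past lesions, was the member with the largest fall. It lies on hg19 chromosome 6 from 111620230 to 111804920. It ran from 5.96 to 31.7 CPM with a median of 11.1 under DMSO, from 3.79 to 16.2 with a median of 6.93 under CSC and from 0.739 to 31.2 with a median of 6.70 under NNK. The medians fell while the ranges overlapped, the highest DMSO value being a single sample of CDKN2A cells and the highest NNK value the NRG1 library that stood apart. REV3L fell under NNK by 0.71 on the log2 scale (SE 0.17, limma adjusted p = 0.00159) and under CSC by 0.47 (SE 0.13, limma adjusted p = 0.0115).

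The REV3L difference was negative in 8 of 8 populations under both chemicals. Under NNK it ran from -1.22 in NRF2 cells to -0.15 in HCRED cells, and without the NRG1 library that stood apart the fold change was -0.84. Leaving out replicate 3 removed the NNK call, at -0.38, and leaving out replicate 2 or 3 removed the CSC call, at -0.35 each. The CSC call was also lost with replicate number as a block within populations. It was lost as well with only the 1-digit wells of populations with 3 wells under both, which made 4 of 20 alternatives. Under BaP REV3L ran from 3.86 to 15.0 CPM with a median of 9.26, and its value of -0.27 did not pass, at a limma adjusted p of 0.161. CSC and NNK differed by 0.23 for REV3L with a 95% interval of -0.13 to 0.58. The other bypass genes, POLH and POLK, polymerases that insert bases opposite lesions, REV1, their scaffold, and RAD18, the ligase that recruits them, did not pass.

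MSH6, which forms with its partner the sensor of single mispairs, was the member that passed under each of the 3 chemicals. It ran from 30.4 to 63.4 CPM with a median of 38.3 under DMSO, from 19.3 to 51.8 with a median of 34.3 under CSC, from 20.1 to 46.2 with a median of 30.9 under BaP and from 14.0 to 94.9 with a median of 27.7 under NNK. The lowest exposed samples fell below every DMSO sample, and the highest NNK sample was again the NRG1 library that stood apart. The log2 fold change was -0.21 under CSC (SE 0.07, limma adjusted p = 0.0408), -0.20 under BaP (SE 0.07, limma adjusted p = 0.0322) and -0.34 under NNK (SE 0.09, limma adjusted p = 0.00544). It was negative in 7, 6 and 8 of the 8 populations. The CSC and BaP calls were kept in only 7 and 8 of 20 alternatives, among them lost without replicate 2 or 3. Without the NRG1 library that stood apart the NNK value was -0.41 (limma adjusted p = 1.14e-05). The NNK call was lost without replicate 3, at -0.29, and without FAT1 cells, at -0.28. MSH3 and PMS2, a second mispair sensor subunit and a nicking subunit, did not pass.

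**Figure D3:**
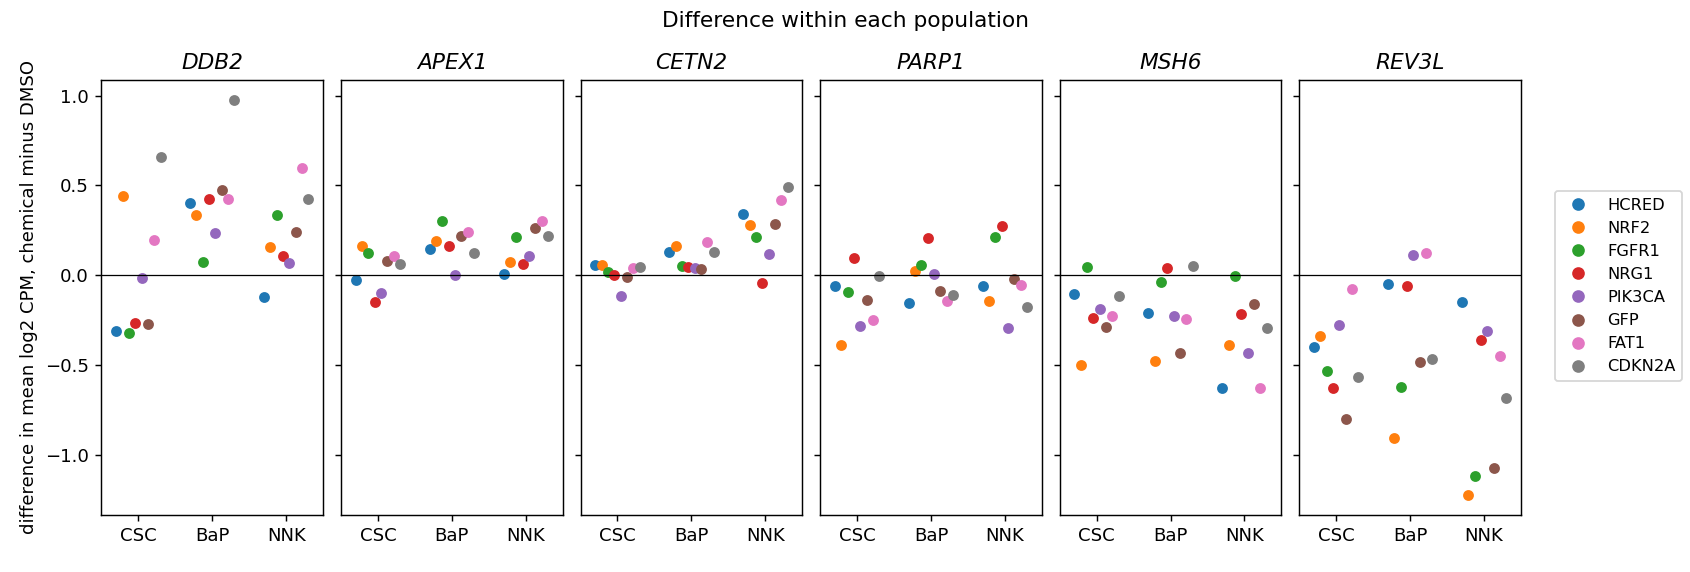
Difference in mean log2 CPM between each chemical and DMSO within each of the 8 populations (y axis, log2 units) for the 6 genes that passed against DMSO, with 1 point per population. DDB2 under BaP lies above 0 in all 8 populations, from 0.08 to 0.98, and REV3L lies below 0 in all 8 under CSC and NNK.

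The change under exposure was related to annotated transcript length across all genes. Among the 10408 genes with a length and a BaP value, the rank correlation of longest annotated transcript with log2 fold change was -0.32, and it was -0.31 under NNK and -0.14 under CSC, a description over genes that share libraries. Under BaP the genes above the upper quartile of length had a median change of -0.11 and those below the lower quartile 0.08. For the GC content of that transcript the rank correlation with log2 fold change was 0.19 under BaP, 0.20 under NNK and 0.08 under CSC. Of the members that passed, REV3L has a longest transcript of 10964 bases, MSH6 7669, PARP1 6210, DDB2 3101, APEX1 1803 and CETN2 1413. With smooth trends on length and GC content removed from each sample, an alternative chosen after seeing the data, DDB2 under BaP, REV3L under CSC and NNK and CETN2 under NNK still passed. MSH6 then no longer passed under CSC, BaP or NNK, at -0.16, -0.06 and -0.19. PARP1 under CSC, at -0.11, and APEX1 under BaP, at 0.08, did not pass either. Both trends were removed together, so the parts of length and GC content cannot be told apart.

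The library of NRG1 cells under NNK replicate 2 held the highest value of all 88 samples for 8 of the 33 genes, among them ERCC6, REV1, RAD23B and FEN1. The share of all genes highest in that library was not counted, so the 8 cannot be read as a trait of the repair genes. ERCC6 was 21.7 CPM there against at most 7.67 in the other NNK samples, and RAD23B was 75.9 against at most 37.5. Leaving the library out raised the genes called over the whole series under NNK to 24.8% of 11435, 12.8% higher and 12.1% lower, and the repair genes called to 6 of 33. The 4 that then passed higher were CETN2, DDB2, APEX1 and POLB, the polymerase that fills BER gaps, at 0.16 (limma adjusted p = 0.0288). The 2 lower ones were REV3L and MSH6.

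Levels of known responders to the exposures show its size beside these changes. CYP1A1, the AHR-induced enzyme that activates BaP, had log2 fold changes of 4.19 with CSC, 4.36 with BaP and 2.28 with NNK (limma). For NQO1, an NRF2 target, they were 1.23, 0.86 and 0.29. Of 4 NRF2 exposure genes tested, NQO1 among them, 4 passed higher under CSC, 3 under BaP and 2 under NNK. Their NNK values ran from -0.19 to 0.29, with NQO1 the highest. The repair genes that passed against DMSO moved by 0.71 or less. Of 15 proliferation genes tested 12 fell under CSC, 11 under BaP and 5 under NNK, with medians of -0.31, -0.17 and -0.10, and their part in the repair gene values was not tested. Of 10 p53 targets tested other than the repair genes, CDKN1A and TP53I3 rose under CSC and BaP, joined by MDM2 under CSC and GADD45A under BaP. Under NNK TP53I3 rose and MDM2 fell, by 0.21. Of the 5 basal markers 2 fell under CSC (KRT5, KRT14), 4 under BaP (ITGA6 and TP63 as well) and 3 under NNK (KRT5, KRT14, ITGA6), KRT14 by 0.82, 0.89 and 0.36. KRT17 rose by 0.11 under BaP and 0.21 under NNK, and its CSC value of 0.10 did not pass. The part of these markers in the repair gene values was not tested.

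Other genes of the same routes were taken from a list of 62 symbols, of which 60 were in the files. Under CSC 5 of 59 tested passed, 2 higher and 3 lower, at a median of 0.0027. CDK7 and GTF2H1, subunits of the TFIIH complex that opens DNA in NER, rose by 0.16 each, while the exonuclease EXO1 and the replication factors RFC3 and RPA1 fell by 0.37, 0.25 and 0.23. Under BaP 8 of 58 passed, 4 in each direction, at a median of 0.02. RPA2 and RPA3, subunits of the protein that coats single strands, rose by 0.25 and 0.09, CDK7 by 0.13 and the uracil glycosylase SMUG1 by 0.19, while SHPRH, HLTF, POLQ and RFC1 fell. Under NNK 5 of 58 passed, at a median of 0.04, SMUG1 higher by 0.33 and the polymerase delta subunits POLD2 and POLD4 by 0.25 and 0.26, SHPRH and CUL4A lower. These shares, 8.47%, 13.8% and 8.62%, were again near or under those of all genes.

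The next question was whether exposures differed among themselves. Between BaP and NNK none of 32 repair genes passed, beside 2.17% of all genes, 0.822% higher and 1.35% lower under BaP. At an unadjusted p under 0.05 there were 3 of 32, beside 1365 of all 11319 genes. With edgeR and DESeq2 1 repair gene each was called. Without the NRG1 library that stood apart limma called 2. The share of all genes in each of these alternatives is not given here, so their counts are no result about the repair genes. Between BaP and CSC DDB2, APEX1 and UNG passed, 3 of 32 and all higher under BaP, beside 9.16% of all genes, 5.32% higher and 3.83% lower. Between CSC and NNK CETN2, LIG1 and FEN1 passed, 3 of 32 and all lower under CSC, beside 7.91% of all genes, 3.63% higher and 4.29% lower. Whether the response differed between populations was tested by an F over 7 interaction terms. None of the repair genes passed for CSC, BaP or NNK, and edgeR called 0 as well. Over all genes 0.0773%, 0.183% and 0.0261% passed. At an unadjusted p under 0.05 there was 1 repair gene for each chemical. Of all genes 657 of 11646, 743 of 11493 and 781 of 11492 were under that value.

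The last question was how the repair genes differed between populations without exposure. Under DMSO 12 of 33 passed a moderated F test over the 8 populations with 3 samples each, beside 39.6% of all 11595 genes. Leaving out replicate 1 or 3 lowered the 12 to 6. The share of all genes in those smaller fits is not given here, so the fall cannot be tied to the repair genes. Populations kept their place on the plate, so population and position cannot be told apart. The 10 smallest adjusted p-values belonged to PARP1, MGMT, NTHL1, RAD18, XPA, XPC, DDB1, CETN2, DDB2 and PMS2, from 0.000116 to 0.0270 (limma variances). PMS2 has near-identical copies in the genome, so its counts are uncertain.

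PARP1 was highest in CDKN2A cells, at 111, 114 and 150 CPM, and its other populations averaged 75.3 to 97.4 CPM. MGMT averaged 12.72 to 13.03 CPM in HCRED, NRF2, FGFR1 and PIK3CA cells, 9.75 in NRG1 cells, 8.09 in FAT1 cells, 6.69 in GFP cells and 5.13 in CDKN2A cells. The 3 GFP samples, 5.86, 6.71 and 7.48 CPM, lay below the 3 HCRED samples at 10.3, 13.2 and 15.4. That contrast was -0.86 (SE 0.36) and did not pass, at a limma adjusted p of 0.128, and in the order of MGMT means each population overlapped the next except NRF2 cells, whose 3 samples lay above all 3 of NRG1 cells.

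Against their controls under DMSO no repair gene passed in NRF2, FGFR1, NRG1, PIK3CA or FAT1 cells, beside 2.42%, 1.07%, 0.975%, 3.43% and 11.5% of all genes. At an unadjusted p under 0.05 (limma) there were 3, 4, 1, 2 and 6 of 33 repair genes. Of all 11595 genes 1497, 1143, 1284, 1680 and 2706 were under that value. GFP cells differed from HCRED cells in 3 repair genes, 1 higher and 2 lower, beside 7.71% of all genes, 4.29% higher and 3.42% lower. NTHL1, the glycosylase for oxidized pyrimidines, was 2.49, 3.67 and 5.87 CPM in GFP cells against 7.70, 12.5 and 17.8, without overlap, a log2 fold change of -1.52 (SE 0.44, limma adjusted p = 0.0158), and the call was lost without replicate 2 or 3, at -1.27 and -1.21. CETN2 was higher, by 0.37 (limma adjusted p = 0.0267), and lost the call in 4 of 7 alternatives, without a count filter and without any 1 of the replicates. The third, MPG, the alkyladenine glycosylase, was at a mean count of only 3.82 over all samples and lost its call in 5 of 7 alternatives.

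CDKN2A cells differed from GFP cells in 4 of 33 repair genes, all lower, beside 20.0% of all genes, 8.77% higher and 11.2% lower. The share of repair genes lower, 12.1%, was thus near that of all genes. DDB2 was 3.35, 5.09 and 7.92 CPM in CDKN2A cells and 14.1, 14.7 and 17.6 in GFP cells, without overlap, a log2 fold change of -1.69 (SE 0.37, limma adjusted p = 0.000188). It kept the call in all 7 alternatives run. XPA, the scaffold of the incision complex, was 2.54, 2.79 and 10.8 CPM against 6.60, 9.23 and 17.4, with overlap, at -1.34 (SE 0.40, limma adjusted p = 0.00941). DDB1 was 42.4, 48.2 and 51.5 CPM against 60.4, 63.1 and 63.8, without overlap, at -0.55 (SE 0.16, limma adjusted p = 0.00502). XPC was 7.25, 10.2 and 11.5 CPM against 11.7, 13.3 and 19.8, at -0.79 (SE 0.30, limma adjusted p = 0.0442). The XPC call was kept in 2 of 7 alternatives and lost without any 1 of the replicates, from -0.92 to -0.64. DDB1 was lost without replicate 1 or 2, at -0.51 and -0.48, and XPA without replicate 1, at -1.09.

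The exposed samples of CDKN2A and GFP cells are described for the same genes. They share populations and plate columns with the DMSO samples, so they are no separate check. How many of all genes would not overlap in them was not counted. Under CSC, BaP and NNK DDB2 ran from 3.84 to 10.7 CPM in the 5 CDKN2A samples and from 10.8 to 27.6 in the 9 GFP samples, so the populations did not overlap. XPC ran from 5.65 to 10.6 CPM against 13.8 to 24.5, again without overlap. DDB1, at 39.8 to 60.1 against 45.9 to 70.1 CPM, and XPA, at 2.51 to 6.92 against 3.36 to 13.5, overlapped.

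**Figure D4:**
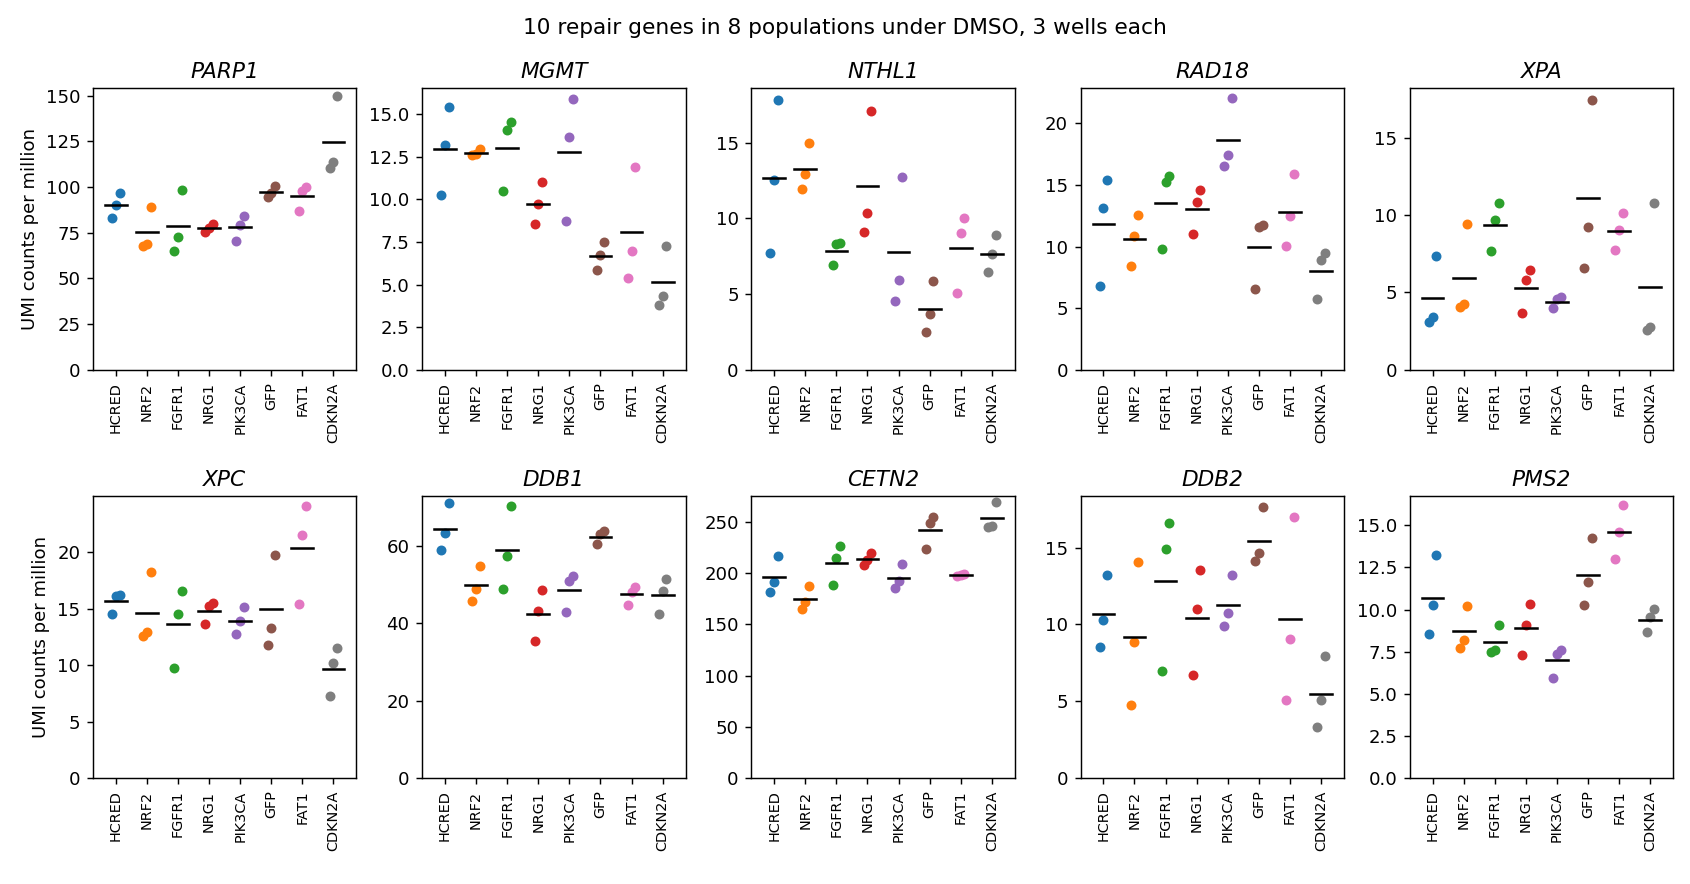
Levels of the 10 repair genes with the smallest adjusted p of the F test in the 8 populations under DMSO (y axes, CPM, UMI counts scaled by library total), with 1 point for each of 3 samples and a bar at the mean. CDKN2A cells lie lowest for DDB2, XPC and MGMT and highest for PARP1, and GFP cells lie lowest for NTHL1.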

How the data were processed

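Values deposited for each well were unnormalized UMI counts from 3′DGE libraries. The authors received them already counted: per the labels and methods, BWA 0.7.10 had placed reads on hg19 RefSeq transcripts and each UMI was counted once per gene and well. The sources used here do not state whether strand was used, so overlapping genes cannot be told apart. Groups came from sample titles. Wells of 2-digit replicate numbers (13) that shared a first digit were summed, since the labels do not call them separate cultures.

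Tests used limma 3.58.1 (voom, TMM factors from edgeR 4.0.16) in R 4.3.3, two-sided, with population as covariate, over genes with a mean count above 1, Benjamini-Hochberg adjusted with a threshold of 0.05. Interaction and population tests were moderated F tests on weighted residual sums of squares. Differences within populations are of log2 CPM with a prior count of 2. Scripts were tested on simulated data. Alternatives included edgeR, DESeq2 1.42.0, other scaling, no count filter and left-out replicates or populations. A GENCODE annotation on hg19, which held all 33 repair genes, gave positions, GC content and lengths, and RefSeq gave promoters.

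Named were MGMT, XPC, each repair gene past a threshold against DMSO, between chemicals or between responses, the 10 with the smallest adjusted p over populations, up to 3 other genes per route and comparison, and exposure and cell type markers. POLB and the genes called against a control population under DMSO were named after their values were seen. The repair genes and all lists were chosen with earlier results of these data known.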

Additional observations from a re-analysis of the deposited data

How the results depend on the processing

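DDB2 under BaP kept its call in 20 of 20 alternatives, from 0.40 to 0.49, and CETN2 and REV3L under NNK in 20 of 21 each, both lost without replicate 3. Depth limited the lowest genes: ERCC5 was at 0 in 39 samples and ERCC2 in 15.

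The number of repair genes called moved by over 1.5 times as follows. Under CSC it fell from 3 to 1 with the 1-digit wells of populations with 3 wells alone, and ran from 0 to 3 with a replicate or population left out. Under BaP left-out fits gave 1 to 4. Under NNK it was 6 without the NRG1 library that stood apart, and 0 to 5 in left-out fits. Between BaP and NNK it rose from 0 to 1 with edgeR, DESeq2 or all wells kept apart, to 2 without that library, and was 0 to 1 in left-out fits. Between BaP and CSC it was 5 with DESeq2 size factors, 1 in a single fit over all chemicals and 0 to 4 in left-out fits, and between CSC and NNK 0 to 3 in left-out fits. Under DMSO leaving out a replicate gave 6 to 10 by the F test, against 12, and 2 to 4 calls against control populations, against 7. Calls over all genes in these smaller DMSO fits are not given here. Over all genes the calls ran from 615 to 1134 under CSC (1035 as reported), from 1019 to 2724 under BaP (1872) and from 490 to 3040 under NNK (1325), the last highest without a count filter. Between chemicals they ran from 74 to 772 for BaP and NNK (246), from 476 to 1110 for BaP and CSC (1054) and from 308 to 1921 for CSC and NNK (912). For differences of the response between populations they ran from 7 to 98 (CSC, 9 as reported), 3 to 54 (BaP, 21) and 1 to 21 (NNK, 3), with none of the repair genes called. The cause of these moves was not tested.

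Values that reversed in sign were near 0 and not called. MGMT under BaP was 0.014 without a count filter, 0.012 with DESeq2 size factors, 0.0040 with DESeq2, 0.0039 with all wells kept apart and 0.017 with length and GC trends removed, and ran from -0.064 to 0.11 in left-out fits. XPC under NNK ran from -0.067 to 0.17 in left-out fits.

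Deviations from the group mean were correlated between each exposed sample and the DMSO samples of its population. Of 63 pairs with the same replicate number none had a correlation over 0.1 (median 0.0056, highest 0.047). Of these, 30 correlated best with their own number among 3 DMSO samples. Random matching would also give a share of such pairs, so weak pairing cannot be told from none. Under the replicate block the CSC count was 0, and all genes called between CSC and NNK rose from 912 to 1662.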
